A study of Mus musculus with 6 samples.

Results

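Glycolysis turns glucose into pyruvate and lactate, and several of its steps can be run by more than 1 isozyme. The 8 genes described here encode such isozymes. They are the hexokinases Hk1, Hk2 and Hk3, the muscle-type aldolase Aldoa, the pyruvate kinases Pklr and Pkm2, and the lactate dehydrogenase subunits Ldha and Ldhb. They were chosen by name, as every spot that is not a control spot and whose gene name is 1 of these 8, out of 27670 names on the array. Pkm2 is the file's name for the gene now called Pkm. The 8 genes have 16 probes, of which 13 were bright enough to be tested, and each of the 8 genes had at least 1 tested probe among the 15922 genes tested.

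RNA from livers of male C57BL/6J mice, an inbred laboratory strain, was measured on single-dye Agilent arrays. Mice on the CFD diet (3 arrays) received no choline, no folic acid and 0.17% methionine for 12 weeks. Mice on the control diet (3 arrays) received the same base for the same time, with 0.3% choline bitartrate, 2 mg/kg folic acid and 0.4% methionine. The diets began at 8 weeks of age, so the mice were 20 weeks old at the end, and the shared base was made of amino acids and carried added iron. Diets of this kind are used in mice as a model of fatty liver with inflammation. The comparison asks whether the liver's own glycolytic isozymes and those of other tissues differed in the same way between the diets. The labels number the replicates without saying that each is a separate mouse, so the p-values cover the variation among these samples, some of which may be technical.

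In the adult liver, hepatocytes make pyruvate with the liver-type pyruvate kinase encoded by Pklr. Most other tissues, the fetal liver and dividing cells use high-affinity hexokinases, aldolase A and the pyruvate kinase encoded by Pkm. The M subunit of lactate dehydrogenase, encoded by Ldha, is the main one in adult liver and muscle, and the H subunit, encoded by Ldhb, is the main one in heart. Pklr is therefore the only one of the 8 genes that is mainly a gene of the adult liver and red blood cells, and Ldha is shared by liver and other tissues.

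The genes that carry these enzymes have unlike promoters. Whether promoter sequence bears on the differences between the diets was not tested. Of these promoters, 5 are shown, for genes whose transcripts are compared between the diets below. Each is the 250 bases before a transcription start in RefSeq (mouse assembly GRCm38.p6), written in the gene's own direction. Capitals mark motifs found by a search of both strands. The E-box was searched as CACGTG. The core of the hypoxia response element was searched as ACGTG and lies inside every E-box. The GC box of housekeeping promoters was searched as GGGCGG. For the TATA box, which places the start of transcription, the letters were TATAAA. The core of the PU-box, a site of myeloid factors, was GAGGAA. The carbohydrate response element is a pair of half-sites bound by ChREBP, the glucose-sensing factor encoded by Mlxipl. Where a motif lies on the opposite strand, its reverse complement is capitalised.
Pklr, liver-type start, chr3:89136373-89136622, plus strand: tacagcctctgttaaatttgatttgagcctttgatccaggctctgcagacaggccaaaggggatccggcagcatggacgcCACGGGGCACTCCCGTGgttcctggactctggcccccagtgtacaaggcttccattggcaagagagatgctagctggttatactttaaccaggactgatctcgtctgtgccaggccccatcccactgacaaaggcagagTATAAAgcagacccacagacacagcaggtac
Pkm, chr9:59656326-59656575, plus strand: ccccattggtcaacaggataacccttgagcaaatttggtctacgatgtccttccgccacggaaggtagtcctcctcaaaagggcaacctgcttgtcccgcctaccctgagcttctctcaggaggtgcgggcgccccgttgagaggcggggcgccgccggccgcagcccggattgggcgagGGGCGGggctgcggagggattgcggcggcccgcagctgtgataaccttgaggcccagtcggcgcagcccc
Hk2, chr6:82774455-82774704, minus strand: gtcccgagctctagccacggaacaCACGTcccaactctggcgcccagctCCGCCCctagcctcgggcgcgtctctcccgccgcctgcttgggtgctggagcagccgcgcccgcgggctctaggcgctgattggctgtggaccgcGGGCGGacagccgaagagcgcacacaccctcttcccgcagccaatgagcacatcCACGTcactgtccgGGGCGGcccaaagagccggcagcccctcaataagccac
Ldha, chr7:46845554-46845803, plus strand: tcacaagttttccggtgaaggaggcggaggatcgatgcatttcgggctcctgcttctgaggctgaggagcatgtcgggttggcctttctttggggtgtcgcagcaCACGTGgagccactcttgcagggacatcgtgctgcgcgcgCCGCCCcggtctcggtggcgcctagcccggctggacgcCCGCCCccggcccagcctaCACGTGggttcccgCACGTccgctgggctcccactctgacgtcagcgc
Ldhb, chr6:142507958-142508207, minus strand: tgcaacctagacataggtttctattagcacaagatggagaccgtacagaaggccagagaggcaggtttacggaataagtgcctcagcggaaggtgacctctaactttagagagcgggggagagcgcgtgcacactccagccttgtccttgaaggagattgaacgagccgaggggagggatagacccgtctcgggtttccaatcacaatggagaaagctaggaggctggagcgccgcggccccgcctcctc

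The table of 32851 promoters held 14 windows for the 8 genes. The carbohydrate response element was found in the Pklr window shown and in no other window of the 8 genes, and 0.0974% of all promoters held it. The same Pklr window was the only one of the 14 with a TATA box, which 12.4% of all promoters held. The Pkm, Hk2 and Ldha windows shown held GC boxes, which 32.7% of all promoters held. The Ldha window held 2 E-boxes, present in 6.02% of all promoters. The hypoxia response core was found in 6 of the 14 windows (Aldoa, Hk2, Hk3, Ldha and Pkm) against 16.6% of all promoters. The Pkm window that held it is another than the one shown, which did not hold it. Aldoa gave 2 of the 6, which overlap and hold the same site, so that site was counted more than once. In the windows with the core, GC content was 67.6% (both Aldoa windows), 69.6% (Hk2), 67.2% (Ldha), 61.6% (Pkm) and 47.2% (Hk3). Its median over all windows was 52.4%, and the shares with the core were not compared by a test. The PU-box core was found in 3 of the 14 windows (Aldoa, Hk1 and Hk3) against 23.3% of all promoters. None of the 6 motifs was found in the Ldhb window. A match describes these letters only and does not show that a factor binds there.

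Of the 8 genes, 6 were called higher in CFD diet livers and 2 were not called, at an adjusted p below 0.05 over all genes tested with limma. The 6 genes were Hk1, Hk2, Hk3, Pkm2, Aldoa and Ldhb, and the 2 not called were Pklr and Ldha. None was called lower, and none had an unadjusted p below 0.05 in that direction. Over all 15922 tested genes 51.1% were called, 23.7% higher and 27.3% lower, so a call by itself was common in this comparison. The median log2 fold change of the 8 genes was 1.11, and that of all tested genes was -0.11. In 6 of the 8 genes every CFD diet value lay above every control value, which was also true of 28.4% of all tested genes, with 34.6% separated in the opposite direction. Of their 13 tested probes 8 were called, all higher, against 49.7% of all tested probes called and 22.1% called higher. Signals are given as multiples of the 75th percentile of their array, and errors beside means are SD over the 3 arrays of a group. As the tissue is whole liver, a change in the share of a cell type and a change of RNA per cell cannot be told apart.

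**Figure D1:**
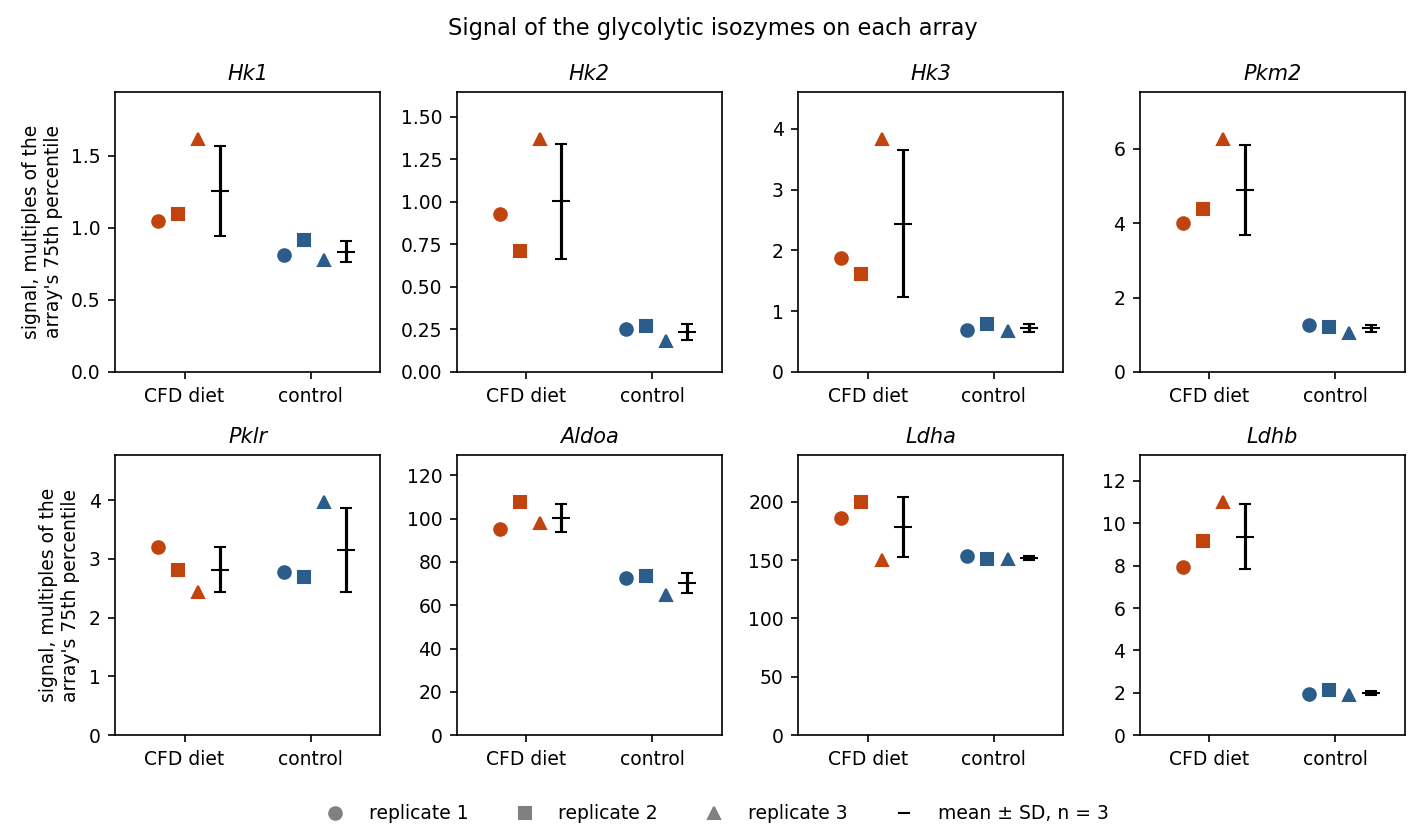
Signal of each of the 8 isozymes on each array, in multiples of that array's 75th percentile, with CFD diet livers on the left of each panel and control livers on the right. Marker shapes give the replicate number, and bars give the mean and SD of 3 arrays. The CFD diet points lie above the control points for Hk1, Hk2, Hk3, Pkm2, Aldoa and Ldhb, and the groups overlap for Pklr and Ldha.

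Hexokinases attach phosphate to glucose as it enters the cell. All 3 high-affinity hexokinase genes were called higher in CFD diet livers, Hk2 by 4.19-fold, Hk3 by 3.15-fold and Hk1 by 1.48-fold on its brightest probe. The Hk1 call was lost under 8 of 15 alternatives of the processing, and those of Hk2 and Hk3 under none.

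Hk2 encodes the hexokinase of muscle and fat that is also raised in many tumours. Its signal was 0.929, 0.709 and 1.37 in CFD diet livers 1 to 3, against 0.252, 0.268 and 0.182 in control livers 1 to 3. The lowest CFD diet value was above the highest control value. The means were 1.00 ± 0.337 in CFD diet livers and 0.234 ± 0.0455 in control livers, and the log2 fold change was 2.07 ± 0.27 (SE, adjusted p = 0.00156). Its probe lies at chr6:82750613-82750672 on the minus strand, in build mm7 (NCBI35), which the file headers give for all probe positions.

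Hk3 encodes a hexokinase known mainly from white blood cells of the myeloid lineage. It gave 1.87, 1.62 and 3.84 in CFD diet livers and 0.693, 0.797 and 0.673 in control livers. The third CFD diet liver stood well above the other two, and the control livers lay close together. The means were 2.44 ± 1.22 in CFD diet livers and 0.721 ± 0.0664 in control livers, with a log2 fold change of 1.66 ± 0.32 (adjusted p = 0.00608, probe at chr13:54088929-54088988, minus strand). Within each of the 3 slides, which held 1 liver of each diet, the difference was 1.43, 1.03 and 2.51 on the log2 scale.

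Hk1 encodes the hexokinase found in most cells, the brain and red blood cells above all. The values of its brightest probe were 1.05, 1.1 and 1.62 in CFD diet livers and 0.814, 0.916 and 0.777 in control livers. The groups did not overlap, though CFD diet livers 1 and 2 were close to the control livers. The log2 fold change was 0.57 ± 0.19 (adjusted p = 0.0447), and it was 0.37, 0.27 and 1.06 within slides 1, 2 and 3. The call was lost when the slide entered the fit as a block (adjusted p = 0.0762), with arrays scaled to their median (log2 fold change 0.36, adjusted p = 0.178), with no filter on dim probes (adjusted p = 0.134), with the mean of its tested probes (0.37, adjusted p = 0.102), without CFD diet replicate 3 (0.37, adjusted p = 0.0927) and without any 1 of the control replicates 1, 2 and 3 (adjusted p = 0.108, 0.0668 and 0.131).

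Hk1 is the only one of the 8 genes with more than 2 probes. The 6 probes lie between positions 61787906 and 61877168 of chromosome 10, and the brightest is at chr10:61787906-61787965. The array's annotation gives the brightest probe a different transcript record from all the others, and the Hk1 call rests on that probe alone. The probe at chr10:61790367-61790426 gave 0.101, 0.0993 and 0.137 in CFD diet livers and 0.0931, 0.0900 and 0.0765 in control livers, a log2 fold change of 0.37 ± 0.17 (adjusted p = 0.116 over all probes). At chr10:61788725-61788784 the values were 0.115, 0.0888 and 0.122 in CFD diet livers and 0.114, 0.0856 and 0.0895 in control livers, and the log2 fold change was 0.17 ± 0.18 (adjusted p = 0.466). Neither of these probes passed the test. The remaining 3 were too dim to test on at least 1 array of each diet. The one at chr10:61794421-61794480 passed the background flag on 2 CFD diet arrays and 0 control arrays, and no fold can be given.

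Aldolase cleaves fructose bisphosphate into 2 trioses. Aldoa, the form of muscle and of most other tissues, was higher in CFD diet livers by 1.43-fold. It gave 95, 108 and 98.1 in CFD diet livers and 72.7, 73.4 and 64.8 in control livers (probe at chr7:122891843-122891902, minus strand). The groups were clearly separated relative to their spread, with means of 100.3 ± 6.64 in CFD diet livers and 70.3 ± 4.81 in control livers. Its log2 fold change was 0.51 ± 0.12 (adjusted p = 0.0122), and its other probe gave 0.46 ± 0.15 (adjusted p = 0.0406 over all probes). The call was lost with arrays scaled to their median (0.31, adjusted p = 0.125), with no filter on dim probes (adjusted p = 0.0609) and without control replicate 3 (0.45, adjusted p = 0.0596). With quantile normalization the log2 fold change was larger, at 0.98 (adjusted p = 0.0024).

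Pyruvate kinase makes pyruvate and ATP in the last step of glycolysis. Pkm2 was 4.12-fold higher in CFD diet livers, while Pklr was not called, with an interval that ran from 0.658-fold to 1.25-fold. Pkm2 gave 4.0, 4.38 and 6.27 in CFD diet livers and 1.25, 1.2 and 1.06 in control livers, and the lowest CFD diet value was far above the highest control value. The means were 4.89 ± 1.21 in CFD diet livers and 1.17 ± 0.0973 in control livers, with a log2 fold change of 2.04 ± 0.19 (adjusted p = 0.000452). Within slides 1 to 3 the difference was 1.68, 1.87 and 2.57.

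The second Pkm2 probe starts 148 bases before the first, and the probes lie at chr9:59705879-59705938 and chr9:59706027-59706086 on the plus strand. It gave 1.92, 2.00 and 2.93 in CFD diet livers and 0.652, 0.616 and 0.547 in control livers. The arrays of each diet fell in the same order as on the first probe, with a log2 fold change of 1.89 ± 0.19 (adjusted p = 0.000597 over all probes). Pkm makes the M1 and M2 forms of the enzyme by including 1 of a pair of exclusive exons. Which form these probes measure was not established here, so Pkm2 stands for the gene and not for the M2 form.

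Pklr gave 3.21, 2.81 and 2.44 in CFD diet livers and 2.78, 2.70 and 3.97 in control livers (probe at chr3:89271395-89271913, plus strand). The groups overlapped, with the third CFD diet liver lowest of all 6 and the third control liver highest. The means were 2.82 ± 0.386 in CFD diet livers and 3.15 ± 0.71 in control livers, and the log2 fold change was -0.14 ± 0.19 (95% interval -0.60 to 0.32, adjusted p = 0.562). Its sign rested on the third control liver, since without that replicate the value was 0.04 (adjusted p = 0.89).

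Lactate dehydrogenase converts pyruvate and lactate into each other, and the enzyme is a tetramer of M and H subunits. Ldhb was 4.66-fold higher in CFD diet livers, and Ldha was not called. Ldhb gave 7.95, 9.16 and 11.0 in CFD diet livers and 1.95, 2.12 and 1.91 in control livers (probe at chr6:142578009-142578068, minus strand). The control livers were nearly alike, and every CFD diet liver stood far above them. The means were 9.36 ± 1.52 in CFD diet livers and 1.99 ± 0.11 in control livers, with a log2 fold change of 2.22 ± 0.15 (adjusted p = 0.000145). Within slides it was 2.03, 2.11 and 2.52.

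Ldha gave 186, 199.7 and 150.1 in CFD diet livers, against 154, 151 and 150.5 in control livers (probe at chr7:43031720-43031779, plus strand). CFD diet livers 1 and 2 were above all control livers, and the third was level with them. The means were 178.5 ± 25.6 in CFD diet livers and 152 ± 1.82 in control livers, and the log2 fold change was 0.22 ± 0.14 (adjusted p = 0.222). The interval of the fold ran from 0.925 to 1.47, so a rise of up to 1.47-fold was not excluded by these arrays. A second probe gave 163, 184 and 134 in CFD diet livers and 132, 124 and 135 in control livers, a log2 fold change of 0.29 ± 0.15 (adjusted p = 0.149 over all probes). With quantile normalization Ldha was called higher (0.75, adjusted p = 0.0146).

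**Figure D2:**
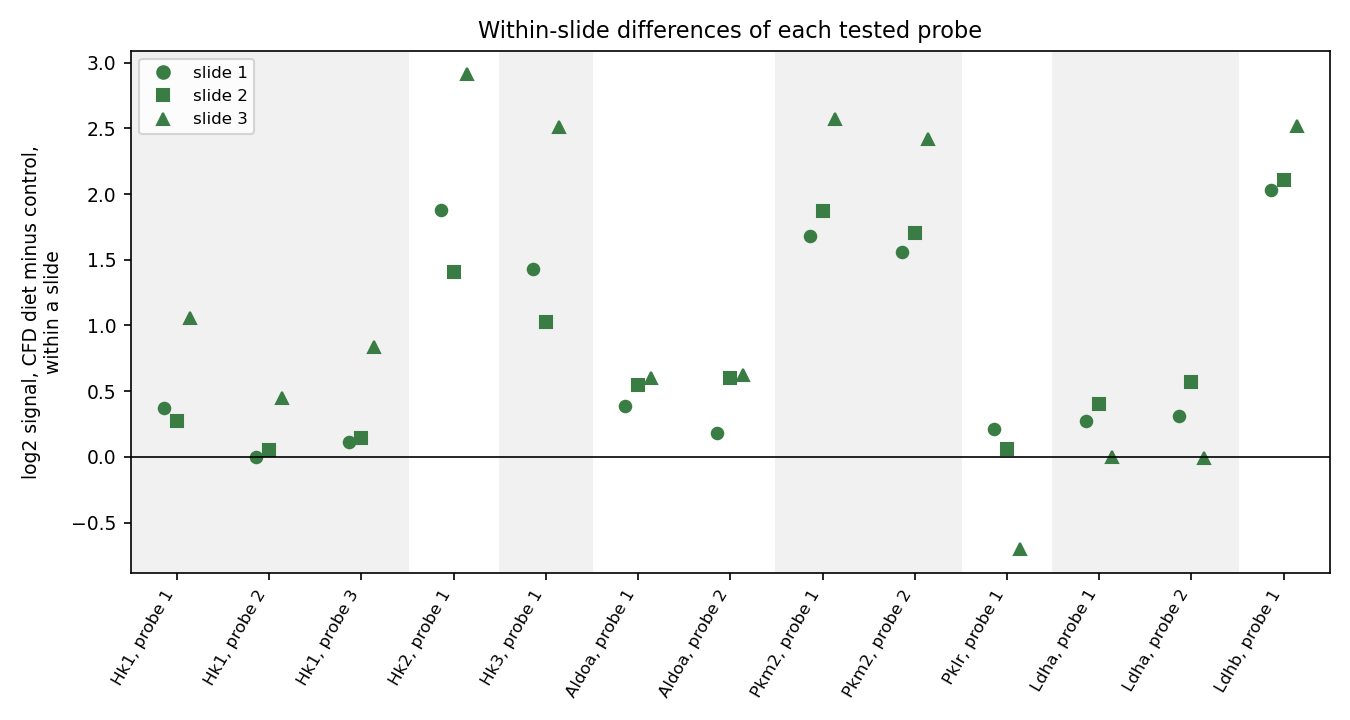
Difference in log2 signal between the CFD diet liver and the control liver of the same slide, for each tested probe of the 8 isozymes. The 3 points of a probe are the 3 slides. All points of Hk2, Hk3, Pkm2 and Ldhb are above 1 on the log2 scale, and the points of Pklr lie on both sides of 0.

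The changes of isozymes that serve the same step were then set against each other within each array, where a single scaling factor per array cancels. A total of 2 pairs were compared, and in each pair the 3 CFD diet values did not overlap the 3 control values. The exact two-sided permutation test gave p = 0.1 for each pair, the smallest p that 3 arrays against 3 can give, so no pair can pass a threshold of 0.05 here. Values are given relative to the control mean of the pair, since signals of different probes cannot be compared as levels.

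For Pkm2 over Pklr, the log2 ratio was 1.73, 2.05 and 2.77 in CFD diet livers and 0.26, 0.24 and -0.49 in control livers. The balance of the pyruvate kinase transcripts therefore lay 4.54-fold further towards Pkm2 in CFD diet livers (log2 difference 2.18 ± 0.40, SE). Within slides 1 to 3 the log2 difference was 1.47, 1.81 and 3.27.

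Ldha over Ldhb was lower in CFD diet livers, with -1.71, -1.81 and -2.48 in CFD diet livers and 0.05, -0.10 and 0.05 in control livers. The log2 difference was -2.0 ± 0.25, and within slides it was -1.75, -1.71 and -2.53. With quantile normalization, which does not use a single factor per array, it was -1.61.

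**Figure D3:**
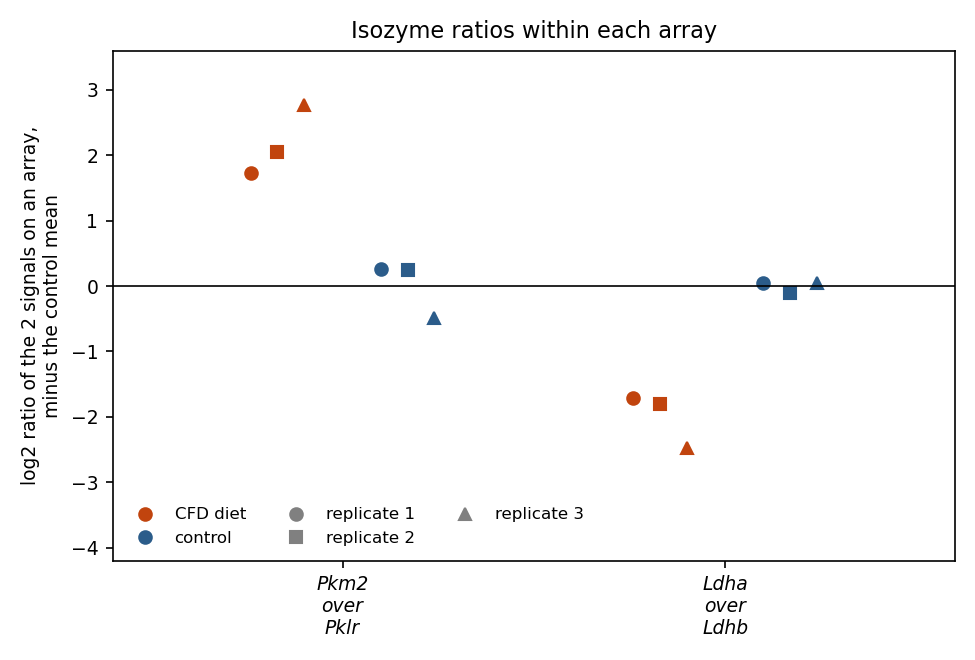
Log2 ratio of the signals of 2 isozymes on the same array, minus the mean of that ratio over the control arrays, for 2 pairs. CFD diet livers are orange and left, control livers blue and right, and marker shapes give the replicate. The groups do not overlap in either pair, and CFD diet liver 3 lies farthest from the control livers in both.

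The other genes of the pathway were counted in lists that hold the 8 genes' neighbours by step and by tissue. Of 8 genes for glucose entry and isozymes typical of liver, Pklr among them, 6 were lower, 0 were higher and 2 (Pklr and Pfkl) were not called. None of the 8 was higher at an unadjusted p below 0.05, and the median log2 fold change was -0.89. The largest falls were those of Ldhd, a mitochondrial D-lactate dehydrogenase (-2.13 ± 0.31, adjusted p = 0.00232), Slc2a2, the glucose transporter of hepatocytes (-1.27 ± 0.20, adjusted p = 0.00312), and Khk, which phosphorylates fructose (-1.24 ± 0.29, adjusted p = 0.0125).

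Of 19 tested genes for isozymes and transporters of other tissues, 14 were higher, 2 lower and 3 not called, with a median of 0.98. That list holds 7 of the 8 genes, and over its other 12 genes 8 were higher and 2 lower, with a median of 0.97. Hkdc1, a hexokinase-like gene, had the largest change (3.66 ± 0.24, adjusted p = 0.000128), but only 1 of the 3 control arrays measured it well above background. Hkdc1 was tested only because it passed the background flag on every CFD diet array. Its call, counted among the 8 higher, rests on control signals near background. Pfkp, the platelet phosphofructokinase, was higher by 2.78 ± 0.19 (adjusted p = 0.00016), and Pfkfb4, which makes a potent activator of phosphofructokinase, by 2.53 ± 0.17 (adjusted p = 0.000134). Slc2a1, a glucose transporter of many dividing cells, gave 3.88, 3.26 and 3.37 in CFD diet livers and 1.97, 1.58 and 1.82 in control livers, without overlap. Eno2, the neuronal enolase, was not well above background on any control array and was at least 1.69-fold higher in CFD diet livers. It was tested only because it passed the background flag on the CFD diet arrays. Its limma call (adjusted p = 0.00634), counted among those higher, rests on control signals near background and does not belong to that bound.

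The genes of that list called lower, named after their values were seen, were Pfkm and Aldoc. Pfkm, the muscle phosphofructokinase, was lower, with a log2 fold change of -1.56 ± 0.27 (adjusted p = 0.00424), and so was Aldoc, the brain aldolase, with -0.99 ± 0.22 (adjusted p = 0.0106). At an unadjusted p below 0.05, 14 genes of the list were higher and 3 lower, the third being Pfkfb3 (-0.91 ± 0.34, adjusted p = 0.06). The isozymes of other tissues therefore did not all differ in the same direction.

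Genes listed as the main isozyme of their step showed no call. Some of these steps have further isozymes of other tissues, and Eno2 and Eno3, which serve the step of Eno1, were counted in the list above. Of 6 tested genes (Gpi1, Tpi1, Pgk1, Pgam1, Eno1 and Bpgm) 0 were called, with a median of -0.29 and 2 genes lower at an unadjusted p below 0.05. Gapdh, the remaining enzyme of this group, was not analysed here. The adjusted p ran from 0.0527 for Eno1 to 0.915 for Gpi1, which encodes the isomerase after hexokinase. Gpi1 gave 52.1, 58.5 and 54.6 in CFD diet livers and 51.8, 55.8 and 59.6 in control livers. With arrays scaled to their median 3 of the 6 were called lower, and with quantile normalization 1 was called higher.

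**Figure D4:**
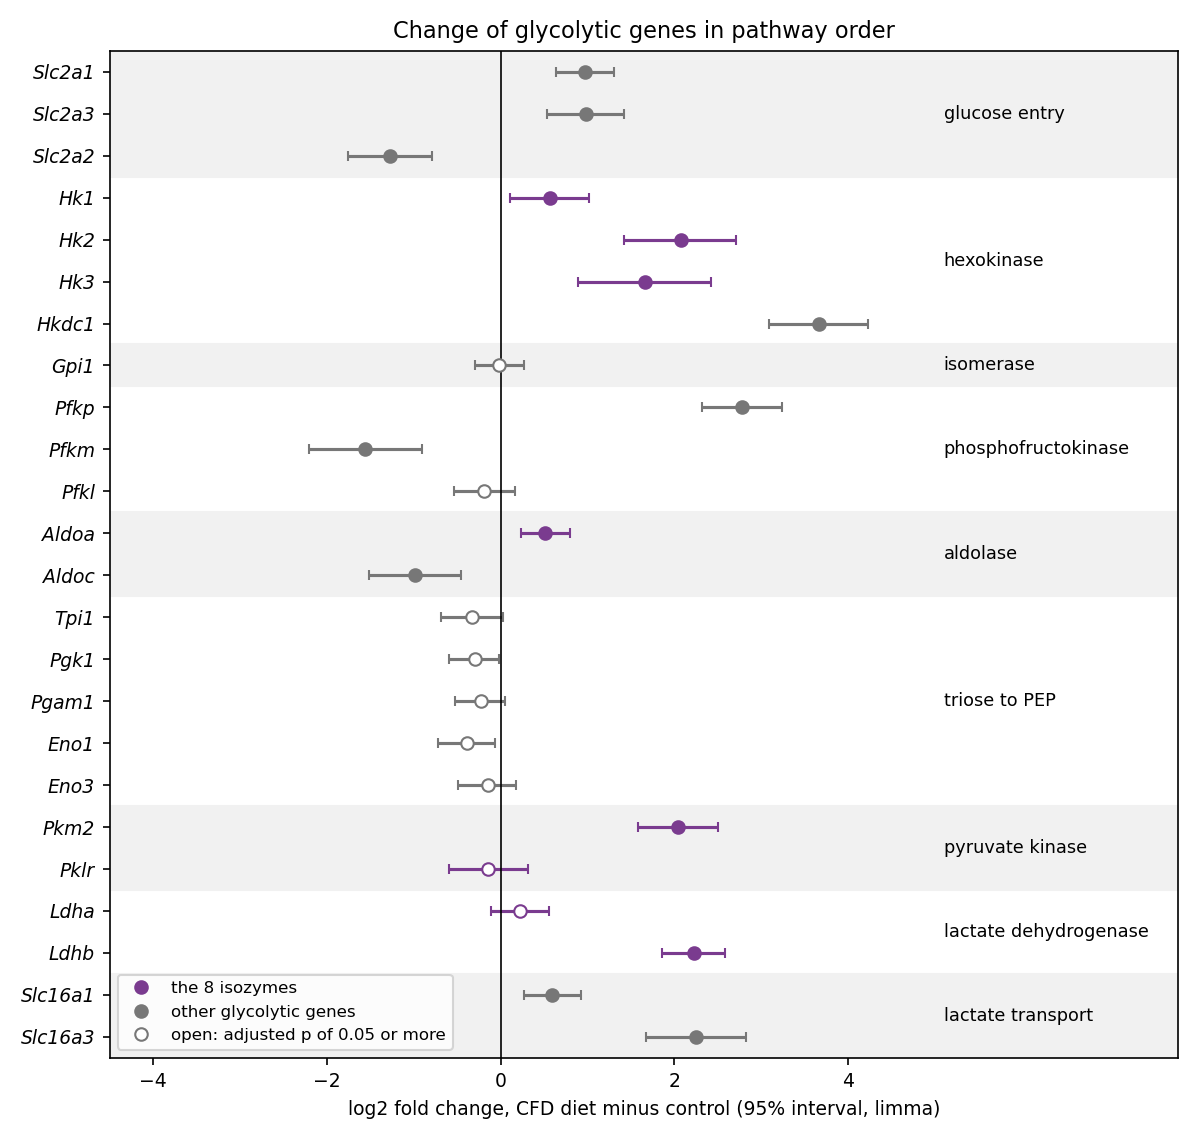
Log2 fold change, CFD diet minus control, with its 95% interval from limma, for genes of glycolysis and lactate transport from glucose entry at the top to lactate transport at the bottom. The 8 isozymes are purple, other genes grey, and open points were not called. Filled points of opposite sign lie side by side in the glucose entry, phosphofructokinase and aldolase steps, and the points drawn from Tpi1 to Eno3 are open. Not every listed gene is drawn, and Eno2, which was called higher, is among those left out.

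Pyruvate and lactate leave glycolysis by several routes, and of 17 tested genes of these routes 6 were higher and 8 lower. The largest change was that of Pdk4, a kinase that switches off pyruvate dehydrogenase, which gave 15.7, 7.93 and 13.4 in CFD diet livers and 0.973, 0.485 and 0.858 in control livers (4.0 ± 0.35, adjusted p = 0.000342). Pdp1, the phosphatase that switches the same complex on, was also higher (2.33 ± 0.15, adjusted p = 0.000118). So was Slc16a3, a carrier that exports lactate from glycolytic cells (2.25 ± 0.24, adjusted p = 0.000715), as was Pdk3, another of the kinases (1.80 ± 0.17, adjusted p = 0.000446). The kinases did not share a direction, since Pdk2 (-1.61 ± 0.26, adjusted p = 0.00335) and Pdk1 (-1.28 ± 0.24, adjusted p = 0.00526) were lower. The other 6 genes called lower were the pyruvate dehydrogenase complex genes Pdhx (-1.18 ± 0.16), Dlat (-0.91 ± 0.15), Pdha1 (-0.77 ± 0.14), Pdhb (-0.56 ± 0.16) and Dld (-0.44 ± 0.12) and the pyruvate carrier gene Mpc2 (-0.53 ± 0.16). The number lower was 5 with the slide as a block, and 5 with quantile normalization.

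Gluconeogenesis runs the pathway backwards in hepatocytes and had 4 of 5 genes lower and 1 higher. Fbp1, G6pc and Pck1, enzymes of the path to free glucose, had log2 fold changes of -1.41 ± 0.27 (adjusted p = 0.00573), -1.16 ± 0.18 (adjusted p = 0.00307) and -1.03 ± 0.18 (adjusted p = 0.00385). The mitochondrial form Pck2 was higher by 2.47 ± 0.14 (adjusted p = 9.95e-05), so the 2 genes for phosphoenolpyruvate carboxykinase differed in opposite directions. In the pentose phosphate branch, which uses the product of hexokinase to make NADPH and ribose, 3 of 7 tested genes were higher and 1 lower. Those higher were G6pdx (1.43 ± 0.19, adjusted p = 0.0015) and Pgd (1.19 ± 0.16, adjusted p = 0.00151), its NADPH-making enzymes, and Tigar (1.04 ± 0.19, adjusted p = 0.00457), and the one lower was Rpe (-0.62 ± 0.12, adjusted p = 0.00657).

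Over 15 transcription and splicing factors known to act on glycolytic genes, 2 were higher and 6 lower, with a median of 0.04. Mlxipl encodes ChREBP, the factor named for the carbohydrate response element, which was matched in the Pklr window above. Mlxipl gave 9.01, 14.8 and 8.65 in CFD diet livers and 24.8, 27.3 and 27.9 in control livers (-1.34 ± 0.22, adjusted p = 0.00356). Hnf4a, a factor of hepatocytes, was also lower (log2 fold change -1.0 ± 0.19, adjusted p = 0.00525). Myc, which drives growth and many glycolytic genes, was higher by 2.13 ± 0.23 (adjusted p = 0.00079), with 1.49, 1.02 and 1.86 in CFD diet livers and 0.282, 0.338 and 0.352 in control livers. Hnrnpa1, a splicing repressor known to act on the exclusive exons of Pkm, was higher by 1.45 ± 0.13 (adjusted p = 0.000425). The other repressors known to act on those exons differed otherwise, with Hnrnpa2b1 lower (-0.55 ± 0.11, adjusted p = 0.00767) and Ptbp1 not called (0.05 ± 0.11, adjusted p = 0.722).

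A list of 12 hypoxia-responsive genes outside glycolysis had 2 higher, 5 lower and 5 not called, with a median of -0.36. Bnip3 (-1.52 ± 0.28, adjusted p = 0.00525), P4ha2 (-1.19 ± 0.14, adjusted p = 0.0011) and Vegfa (-0.93 ± 0.15, adjusted p = 0.00324) were lower, and Adm was higher (1.35 ± 0.18, adjusted p = 0.00179). The 2 called higher fell to 1 with arrays scaled to their median, with normexp background correction or with the slide as a block. Calls in these lists are to be read beside the 23.7% and 27.3% of all tested genes called higher and lower.

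Markers of other cell types moved with the diet in these whole-liver samples, and their part in the results for the 8 isozymes was not tested. Sums are of the signals of a list's tested genes, in livers 1 to 3 of each diet, so the brightest gene of a list weighs most. Of 8 macrophage markers 7 were higher and 1 lower, with sums of 287, 388 and 376 in CFD diet livers and 98.0, 123 and 91.1 in control livers. Lyz2 alone gave 224.4, 322.0 and 300.4 of these sums in CFD diet livers and 56.0, 77.9 and 49.9 in control livers. The one lower was Clec4f, a marker of resident Kupffer cells (-0.73 ± 0.21), and among those higher were Gpnmb (8.5 ± 1.04, well above background on 2 of 3 control arrays), Itgam (3.87 ± 0.45, on 1 of 3) and Cd14 (2.85 ± 0.15). Gpnmb and Itgam were tested only because they passed the background flag on every CFD diet array. All 8 markers of proliferating cells were higher, Plk1, Mki67 and Ccnb1 the most (2.54 ± 0.35, 2.46 ± 0.23 and 2.25 ± 0.28), with sums of 12.7, 8.48 and 6.98 in CFD diet livers and 2.26, 2.27 and 1.93 in control livers.

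Epithelium of ducts and progenitors, known to express Pkm rather than Pklr, had 7 of 7 markers higher, with sums of 104.7, 136 and 135 in CFD diet livers and 10.3, 9.34 and 7.59 in control livers. Spp1 alone gave 84.4, 115.1 and 116.7 of these sums in CFD diet livers and 7.98, 6.74 and 5.2 in control livers. Epcam, Spp1 and Cldn7 had the largest changes (4.55 ± 0.29, 3.99 ± 0.21 and 3.98 ± 0.19). Epcam was well above background on 1 of 3 control arrays and was tested only because it passed on every CFD diet array. Stellate cells and myofibroblasts also had 7 of 7 higher, with sums of 37.5, 40.2 and 51.8 in CFD diet livers and 13.1, 13.5 and 11.6 in control livers. Their collagen genes Col1a1, Col3a1 and Col1a2 rose by 3.64 ± 0.25, 3.01 ± 0.24 and 2.41 ± 0.26. The liver's own marker list, 7 hepatocyte genes, had 3 lower and 0 higher (0 higher and 4 lower at an unadjusted p below 0.05), with sums of 1198, 2023 and 1267 in CFD diet livers and 1962, 2341 and 2291 in control livers. Apoa1, Cps1 and Ttr were the 3 that fell (-1.04 ± 0.27, -0.81 ± 0.14 and -0.61 ± 0.18).

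Neutrophil markers divided. S100a8 and S100a9 were higher (3.85 ± 0.21 and 3.72 ± 0.23), with sums of 20.4, 18.5 and 24.4 in CFD diet livers and 1.25, 2.17 and 1.45 in control livers. The granule genes Ngp and Camp were not well above background on any array, and Mpo, Elane and Ltf were not tested. Erythroid genes bear on Pklr and Hk1, which red blood cells also use, and 3 of 4 tested were lower, namely Klf1 (-1.89 ± 0.39), Alas2 (-1.61 ± 0.30) and Slc4a1 (-1.27 ± 0.23). Their sums were 80.7, 144 and 79.2 in CFD diet livers and 146, 209 and 169 in control livers, and no array measured Epb42 well above background. Of 4 lymphocyte markers 0 were called by limma (0 higher and 2 lower at an unadjusted p below 0.05), with sums of 0.506, 0.756 and 0.767 in CFD diet livers and 0.909, 0.991 and 0.727 in control livers. For skeletal muscle, which is rich in Aldoa and Ldha, Ckm, Myh4 and Myl1 were not well above background on any array, Tnnt3 was too dim to test, and Acta1 was at least 2.97-fold higher in CFD diet livers. Acta1 was not well above background on any control array. Like Eno2, it was tested only because it passed the background flag on the CFD diet arrays.

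The 8 isozymes did not share 1 order over the CFD diet livers. Of the 6 called higher, 5 had their highest value in CFD diet liver 3, and Aldoa had it in CFD diet liver 2. Over all genes called higher, 57.4% were highest in CFD diet liver 3, 26.7% in liver 1 and 15.9% in liver 2. The proliferation markers ran otherwise, with all 8 highest in CFD diet liver 1 and 7 of the 8 lowest in CFD diet liver 3. Of the 7 macrophage markers called higher 5 were highest in CFD diet liver 3, as were 5 of 7 duct and progenitor markers, 5 of 7 stellate cell markers and both neutrophil markers.

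The genes with the most similar signal over the 6 arrays were listed for each isozyme as a description, by Pearson correlation of log2 signal. The 6 values of a called gene fall into 2 diet groups, so a coefficient also holds the diet difference, and no p is given. For Ldhb they were Mfge8, Evc2 and Fkbp1b (0.9998 each), and for Pkm2 they were Fbxw17, Tuba1a and Evi2a (0.9994, 0.9992 and 0.9991). For Hk2 they were Cpne8, Marchf1 and Mcemp1 (0.9996, 0.9995 and 0.9993), for Hk3 Sbno2, Pik3r6 and Nfam1 (0.9999, 0.9991 and 0.9979), and for Hk1 H2-DMb1, Eri1 and Hinfp (0.9942, 0.9895 and 0.9895). For Aldoa they were Dbil5, BC089618 and Cngb1 (0.9989, 0.9964 and 0.995). The 2 genes not called had lower coefficients. For Ldha they were Nudt16, Tmem167 and LOC625603 (0.9875, 0.9774 and 0.9734), and for Pklr they were 2 unnamed transcripts and Fndc11, at 0.9523, 0.9332 and 0.9308.

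The 75th percentile of the processed signal, by which each array was divided, was 617.8, 404.1 and 670.2 on CFD diet arrays 1 to 3 and 438.8, 365 and 402.2 on control arrays 1 to 3. It was higher on the CFD diet array of every slide, and its part in the results was not tested beyond the other scalings. The software's background flag passed 23620 to 29084 of the 41174 probes per CFD diet array and 21714 to 26312 per control array, and no spot was saturated. Over genes, which do not count as replicates, the correlation of arrays was 0.982 to 0.99 within the CFD diet group, 0.99 to 0.993 within the control group and 0.913 to 0.951 between them. Each slide held 1 array of each diet, so slide and diet can be told apart. The number of arrays limits the precision, and whether a probe also binds transcripts of related genes or processed copies was not tested.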

How the data were processed

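Scanner files of single-dye (Cy3) Agilent arrays were used as deposited. Their processed signal is an intensity from which Feature Extraction has taken the background, per the file headers. That software is version 10.5.1.1 in the headers and 10.7 in the submitters' processing notes. The deposited value table also holds intensity values on a linear scale. By rank, each of its columns held another replicate of the same diet, so replicates are numbered by the scanner files and the table served as an alternative. Its column medians were 72.67, 73.88 and 80.59 for CFD diet and 67.98, 61.49 and 67.63 for control. No centring was seen in it, and which numbering is the intended one is unknown.

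Each processed signal was divided by the 75th percentile of its array, taken without control spots, and then log2-transformed. Spots with an outlier flag were dropped and the rest averaged per probe. Testing required the software's well-above-background flag in every array of either diet (23503 probes). Where a gene had several such probes, the brightest over all arrays represented it (15922 genes). CFD diet minus control was estimated by lmFit and eBayes of limma 3.58.1 (R 4.3.3), and p-values were adjusted by Benjamini and Hochberg over all tested genes, or over all tested probes where said. Genes with an adjusted p below 0.05 count as called. The error of a log2 fold change is limma's standard error, and those of pair ratios come from the spread of 3 arrays a group. Where no array of a diet was well above background, "at least N-fold" sets the mean signal of the CFD diet arrays against, per control array, the probe's own signal or the dimmest flagged signal, whichever is higher. Names were updated through RefSeq (GRCm38.p6): 22951 probes through an accession, 6659 with a current symbol, 3109 with an older one, and 8455 kept the file's name. Both probes named Pkm2 in the files are Pkm there.

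Same-numbered replicates lay on 1 slide, per the file headers, which is where the pairing comes from. Deviations from the group means of same-slide arrays correlated at 0.173, -0.069 and -0.011. The alternatives were normexp background correction, array median scaling, quantile normalization, other filters on dim probes, the slide as a block, a trended and robust eBayes, the mean of a gene's probes, the value table and leaving out each replicate. In data simulated on the 15922 genes, 200 genes were changed, 50 by each amount. The fit called 96% of genes raised by 2 on the log2 scale and 50% of those raised by 1. It called 58% of those lowered by 1, 80% of those lowered by 2 and 0.03% of unchanged genes. In the measured data 51.1% of genes were called, a far larger share than was changed in the simulation. The adjustment depends on that share, so these percentages check the fit and are not rates for this comparison.

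The 8 isozymes, their pairs and all gene lists were chosen with earlier results of these data known. Named genes follow a rule: the 8 isozymes, up to 4 called genes of each pathway list and 3 of each marker list with the largest change, and the 3 genes most correlated with each isozyme. Other genes named were chosen after their values were seen. Some genes of the pairs and lists are not reported here. Columns of per-sample values left unmapped numbered 0.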

Additional observations from a re-analysis of the deposited data

How the results depend on the processing

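Hk2, Hk3, Pkm2 and Ldhb kept their direction and call under all 15 alternatives, and of 120 values (8 isozymes under 15 alternatives) 107 kept both, 11 lost a call, 1 gained a call and 1 reversed. Some alternatives could hardly differ from the main fit, so the 15 are not independent checks. The value table repeated the log2 fold changes of all 8 isozymes. For Hk2, Hk3, Pklr and Ldhb, which have 1 probe each, the mean of the tested probes is that same probe. Leaving out 1 replicate gave 1.81 to 2.29 for Hk2, 1.27 to 1.90 for Hk3, 1.85 to 2.17 for Pkm2, 2.10 to 2.33 for Ldhb, 0.45 to 0.55 for Aldoa, 0.37 to 0.68 for Hk1, 0.14 to 0.34 for Ldha and -0.24 to 0.04 for Pklr. Array median scaling moved the median of all tested genes from -0.11 to -0.31. It left Hk1 at 0.36 and Aldoa at 0.31, neither called. Quantile normalization gave 0.75 for Ldha, which was then called, and 0.98 for Aldoa. Without a filter on dim probes 27670 genes were tested, and Hk1 (0.57) and Aldoa (0.51) lost their calls at unchanged values. The slide as a replicate block did the same to Hk1 (0.57) and changed no other call of the 8 isozymes. The mean of its tested probes gave 0.37 for Hk1. Pklr reversed to 0.04 without control replicate 3.

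Isozymes called higher numbered 4 to 7 over all alternatives and 4 to 6 when a replicate was left out (4 without control replicate 3), with 0 called lower throughout. Over all genes 3781 were called higher and 4353 lower, with 2938 and 5807 under array median scaling. Those called lower were 2460 without a filter, and 2767 to 4951 when 1 replicate was left out (2885 without CFD diet replicate 3, 2767 without control replicate 3), and those called higher 3115 to 3933. Under quantile normalization 1 gene listed as a main isozyme was higher, 5 pyruvate and lactate genes lower and 3 regulators lower. Under array median scaling 3 genes listed as main isozymes and 2 pentose phosphate genes were lower. The block left 5 pyruvate and lactate genes lower. The 2 hypoxia-responsive genes called higher were 1 under array median scaling, 1 under normexp and 1 under the block. Within slides, Pkm2 over Pklr was 1.47 on slide 1 and 3.27 on slide 3, and Ldha over Ldhb was -2.53 on slide 3. The causes of these shifts were not tested. Signals near background limit the 3 untested Hk1 probes, Eno2 and Acta1.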

Other observations

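In 23.5% of the 15865 tested genes with a value on every array, the second replicate of each diet lay closest to the other diet, against 9.13% for the first replicates and 2.94% for the third. This count and the examples below were chosen after the values were seen, and no cause was tested. Srebf1, a regulator of fat synthesis, gave 36.2, 66.2 and 42.1 in CFD diet livers and 90.9, 65.5 and 104.9 in control livers, so its second control liver lay just below the second CFD diet liver. Me1, the cytosolic malic enzyme that makes NADPH, gave 7.52, 8.00 and 5.61 in CFD diet livers and 14.5, 7.91 and 16.6 in control livers, again with the second control liver among the CFD diet values. For Srebf1 the log2 fold change was -0.88 ± 0.27 (adjusted p = 0.0345), and for Me1 it was -0.83 ± 0.30 (adjusted p = 0.0551). Hk2 and Hk3 were also lowest among the CFD diet livers and highest among the control livers in the second replicate, while Pkm2, Ldhb and Aldoa were not lowest there among the CFD diet livers.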
